A study of Bos taurus with 21 samples.

Results

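Imprinted growth genes were followed in the muscle of cattle foetuses from 110 to 260 days post conception (dpc). The genes were *DLK1*, *PEG3*, *PEG10*, *MEST*, *NNAT*, *CDKN1C*, *PLAGL1* and *GNAS*, 8 in all, and a probe was taken as theirs when its RefSeq accession belonged to one of them in the cattle annotation. This gave 26 of the 43653 non-control probes of the array, for 7 of the 8 genes, of 12538 genes with a named probe. *PEG3* was not analysed here. All 7 genes had at least 1 probe that passed the expression filter (22 probes, of 20132 that passed in all), so each could be tested.

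The foetuses were of the Blonde d'Aquitaine (BA), a muscular French beef breed in which a *MSTN* mutation occurs, and the Charolais (CH), the breed set against it. BA gave 3, 2, 3 and 2 foetuses at 110, 180, 210 and 260 dpc and CH gave 2, 3, 3 and 3, with 1 single-colour 4x44K Agilent array for each, 21 in all. They came from 2 sires per breed and were untreated. The BA foetuses at 180 dpc shared 1 sire and those at 260 dpc the other, and the 3 CH foetuses at 210 dpc shared 1 sire. The study did not genotype the BA foetuses for the *MSTN* mutation, so BA stands for the breed and not for a genotype. Males numbered 2, 0, 1 and 0 in BA and 0, 1, 2 and 2 in CH at the 4 stages. The sample labels name the muscle *m. Longissimus thoracis*, whereas the study's methods name *m. Semitendinosus*. The labelled tissue was checked as skeletal muscle, without telling these 2 muscles apart, by 9 muscle genes. A probe was found for 7 of them, and all 7 were well above background on all 21 arrays, actin alpha 1 (*ACTA1*) and muscle creatine kinase (*CKM*) included.

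An imprinted gene is read mainly or only from the copy inherited from 1 parent. Many such genes act on foetal growth and the placenta, and several of those that promote growth are known to be active before birth and to be turned down in many organs as growth slows. In mice *PLAGL1*, a zinc finger transcription factor, is known to act on other imprinted genes, and such genes have been described as a network. The array does not tell which parental copy an RNA came from.

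Values are normalized log2 intensities. They are relative to the 75th percentile of their own array, plus 2.69, which puts a typical array's median probe at 0. A difference of 1 is therefore a doubling. A probe passed the filter when its mean was above 0 in at least 7 of the 8 breed and stage groups, and the brightest tested probe stands for its gene. Differences were tested with limma over all 21 arrays, with Benjamini-Hochberg adjustment over the 20132 probes, and are called at an adjusted p under 0.05. Each array had 29017 to 34501 probes well above its background. The study's methods speak of normalization between arrays, but in the authors' deposited values the 75th percentile still ranged from 1285 to 2740 intensity units over the 26225 probes with a value on every array. These values are called unscaled here. With 2 or 3 arrays per group the number of foetuses limits the precision. In whole muscle, fewer cells of a type and less RNA per cell cannot be told apart.

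Between 110 and 260 dpc, on average over the breeds, 6 of the 7 genes fell and 1, *GNAS*, rose, with the rise of *GNAS* lost under 2 of the scalings tried: its difference turned to -0.15 with quantile normalization and to -0.019 in the authors' unscaled values. Over all probes tested, 30.8% were called lower and 33.3% higher (6198 and 6708 probes, against 7916 and 2492 in the authors' unscaled values). The median difference of the 7 genes was -1.55, against 0.035 over all probes. The falls spanned 2.71-fold in *DLK1* to 15.4-fold in *NNAT*, whose fall was the 11th steepest of the 7932 genes tested by their brightest probe. *PEG10* ranked 80, *MEST* 121, *PLAGL1* 285, *CDKN1C* 300 and *DLK1* 334. In each of the 6 genes that fell every array at 260 dpc lay below every array at 110 dpc, as did 21.8% of all probes tested. In *GNAS* every array at 260 dpc lay above every array at 110 dpc, as did 25.4% of all probes. Of the 22 tested probes of these genes 16 were called lower, and the 6 called higher were all of *GNAS*, the gene whose direction depends on the scaling.

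**Figure D1:**
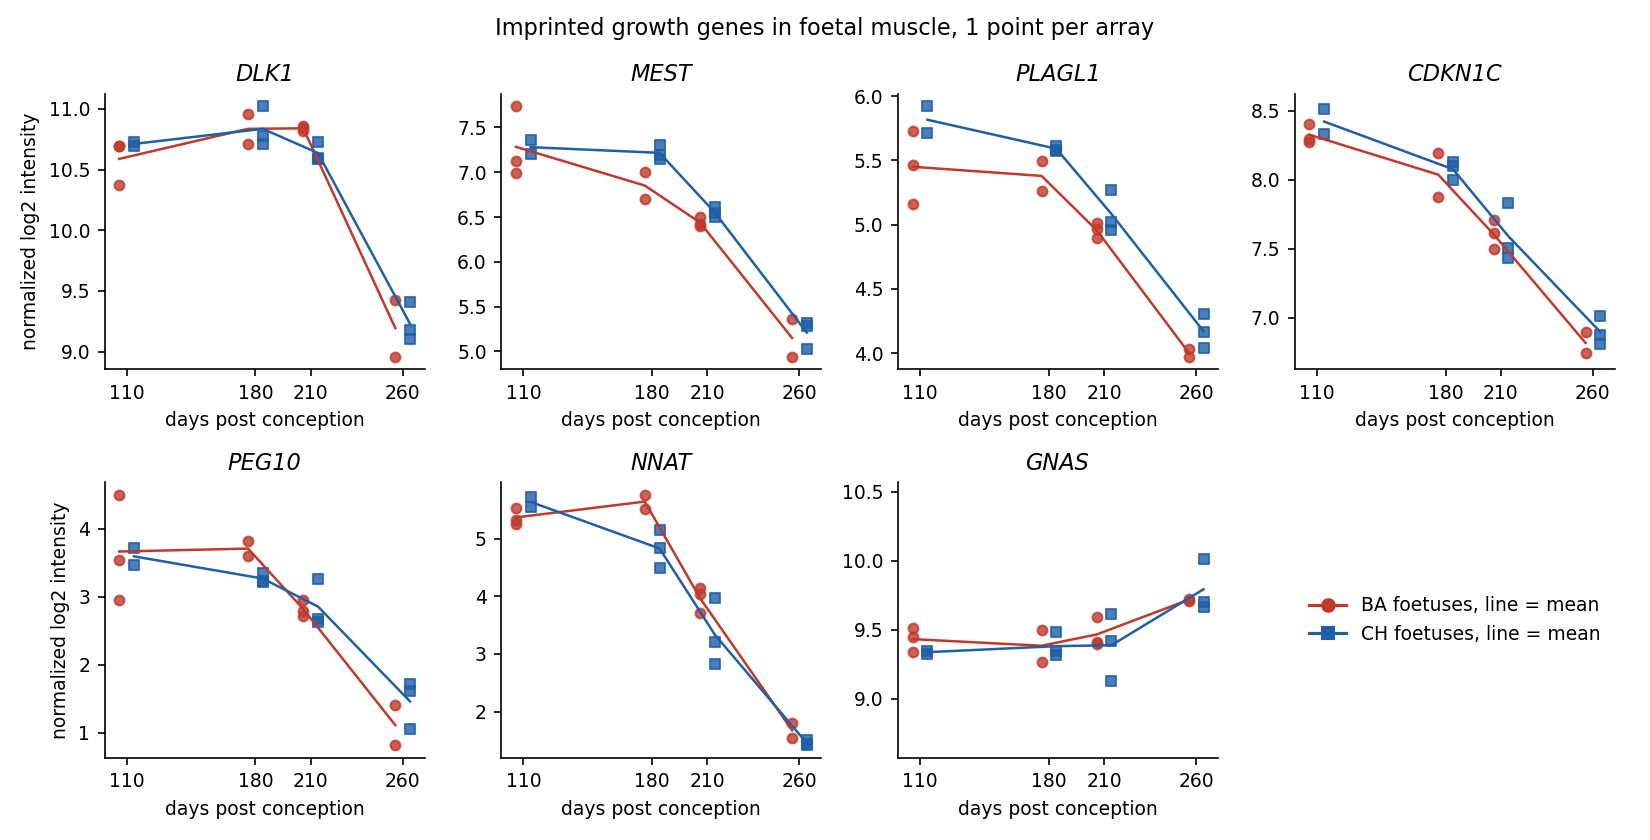
Normalized log2 intensity (y) of the brightest tested probe of 7 imprinted growth genes against days post conception (x), with 1 point per array, circles for BA, squares for CH and lines through the group means. In the 6 genes other than *GNAS* all 5 arrays at 260 dpc lie below all 5 at 110 dpc, and *DLK1* stays between 10.59 and 11.02 at 180 and 210 dpc before it drops.

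*DLK1* encodes delta like non-canonical Notch ligand 1, a membrane and secreted protein that is known to hold back the maturation of fat cells and to be made in foetal muscle. At 110 dpc its intensities (probe A_73_110424) were 10.37, 10.70 and 10.69 in BA and 10.73 and 10.70 in CH. They were 10.71 and 10.96 in BA and 11.02, 10.77 and 10.71 in CH at 180 dpc, and 10.82, 10.86 and 10.84 in BA and 10.59, 10.73 and 10.59 in CH at 210 dpc. At 260 dpc they were 9.43 and 8.96 in BA and 9.18, 9.41 and 9.10 in CH. The first 3 stages overlapped, and every array at 260 dpc was lower than any other array. After 210 dpc *DLK1* fell by 1.53 ± 0.10 (SE, adjusted p = 2.2e-08 in limma), whereas the steps between 180 and 110 dpc (0.19, adjusted p = 0.22) and between 210 and 180 dpc (-0.10, adjusted p = 0.60) were not called. The whole fall of *DLK1* therefore lay after 210 dpc, with a step of 106% of the difference between 260 and 110 dpc (-1.44 ± 0.11, adjusted p = 2.9e-09).

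All 5 *DLK1* probes fell, but by different amounts. From 110 to 260 dpc the change was -1.44 and -1.29 in the 2 brightest and between -2.09 and -2.20 in the other 3. Those 3 probes also rose from 110 to 180 dpc, by 0.51 to 0.63 (adjusted p between 0.0082 and 0.017), which the 2 brightest did not. In A_73_P360536, one of the 3, the intensities were 6.97 to 7.80 at 110 dpc, 7.96 to 8.18 at 180 dpc, 7.31 to 8.17 at 210 dpc and 4.71 to 5.61 at 260 dpc. At 180 dpc all 5 arrays of this probe were above all 5 at 110 dpc. The probes were not assigned to transcripts of *DLK1*.

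*MEST*, also known as *PEG1*, encodes a membrane protein of the alpha/beta hydrolase family and is widely used as a marker of the mesoderm of the embryo. Its probe A_73_100042 read 7.74, 6.99 and 7.12 in BA and 7.36 and 7.20 in CH at 110 dpc. At 260 dpc it read 5.36 and 4.94 in BA and 5.03, 5.32 and 5.28 in CH. The arrays spanned 6.71 to 7.31 at 180 dpc, overlapping those at 110 dpc, and 6.40 to 6.61 at 210 dpc, below all arrays at 180 dpc. *MEST* fell by 2.10 ± 0.13 from 110 to 260 dpc (adjusted p = 2.8e-10), which left 23.3% of the level at 110 dpc. All 5 probes of *MEST* fell, by 1.76 to 2.52.

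*PLAGL1* (*ZAC1*), the transcription factor named above, is also known to slow the cell cycle. Its probe A_73_P291476 read 5.73, 5.46 and 5.16 in BA and 5.92 and 5.71 in CH at 110 dpc, and 4.04 and 3.97 in BA and 4.31, 4.04 and 4.16 in CH at 260 dpc. The difference was -1.55 ± 0.10 (adjusted p = 9.4e-10). The second tested probe fell by 1.74. Another probe, above background on 17 of the 21 arrays, did not pass the filter and was not tested.

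*CDKN1C* encodes p57, an inhibitor of the cyclin-dependent kinases that is known for its part in taking muscle precursors out of the cell cycle. It is expressed from the maternal copy in the mouse and in humans and restrains growth, unlike the paternally expressed growth promoters among the 7 genes. The single probe, A_73_P050206, read 8.28, 8.41 and 8.30 in BA and 8.51 and 8.33 in CH at 110 dpc, and 6.89 and 6.74 in BA and 6.87, 6.81 and 7.01 in CH at 260 dpc. The arrays spanned 7.88 to 8.20 at 180 dpc and 7.44 to 7.83 at 210 dpc, so that no 2 stages overlapped. *CDKN1C* fell at each step, by 0.32 (adjusted p = 0.019), 0.46 (adjusted p = 0.0038) and 0.74, and by 1.52 ± 0.093 from 110 to 260 dpc (adjusted p = 3.1e-10).

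*PEG10* encodes a protein derived from a retrotransposon that the placenta needs to form. At 110 dpc its probe A_73_P088236 read 2.95, 3.54 and 4.50 in BA and 3.72 and 3.46 in CH. At 260 dpc it read 1.41 and 0.81 in BA and 1.61, 1.71 and 1.06 in CH. Among the probes that stand for the 7 genes, these 3 BA foetuses at 110 dpc had the largest SD of any group (0.78). Yet all 3 lay above the arrays at 260 dpc. *PEG10* fell by 2.35 ± 0.23 from 110 to 260 dpc (adjusted p = 1.1e-07). A second tested probe fell by 1.76, and another was well above background on 5 arrays and was not tested.

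*NNAT* encodes neuronatin, a small membrane proteolipid first described in the developing brain and known to act on calcium in the endoplasmic reticulum. Its probe A_73_117000 read 5.26, 5.53 and 5.33 in BA and 5.56 and 5.72 in CH at 110 dpc. It read 5.77 and 5.52 in BA and 4.50, 5.15 and 4.85 in CH at 180 dpc, and 4.05, 4.15 and 3.71 in BA and 2.83, 3.98 and 3.21 in CH at 210 dpc. At 260 dpc it read 1.80 and 1.55 in BA and 1.41, 1.51 and 1.43 in CH. All arrays at 210 dpc lay below those at 110 and 180 dpc, and all at 260 dpc lay below those at 210 dpc. *NNAT* fell by 3.94 ± 0.18 from 110 to 260 dpc (adjusted p = 6.7e-12), which left 6.51% of the level at 110 dpc. The other 2 *NNAT* probes did not pass the filter and were not tested. One of them, well above background on all 21 arrays, read 2.32 to 2.60 at 110 dpc and -2.02 to -1.31 at 260 dpc.

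*GNAS* encodes the alpha subunit of the stimulatory G protein, which couples hormone receptors to cyclic AMP, and its locus makes several transcripts of which not all are imprinted. Its probe A_73_102858 read 9.34, 9.51 and 9.44 in BA and 9.33 and 9.35 in CH at 110 dpc, and 9.71 and 9.72 in BA and 9.67, 10.01 and 9.70 in CH at 260 dpc. On this scale *GNAS* was 1.29-fold higher at 260 dpc (0.37 ± 0.098, adjusted p = 0.0033), but it lay at -0.15 (adjusted p = 0.057) with quantile normalization and at -0.019 (adjusted p = 0.94) in the authors' unscaled values. The median over all probes was itself -0.36 in the unscaled values, and with scaling to the median of each array it was 0.13. The 6 *GNAS* probes differed by 0.35 to 0.54 on the main scale. The direction of *GNAS* therefore depends on how arrays are scaled, unlike that of the other 6 genes, which fell under every setting tried.

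**Figure D2:**
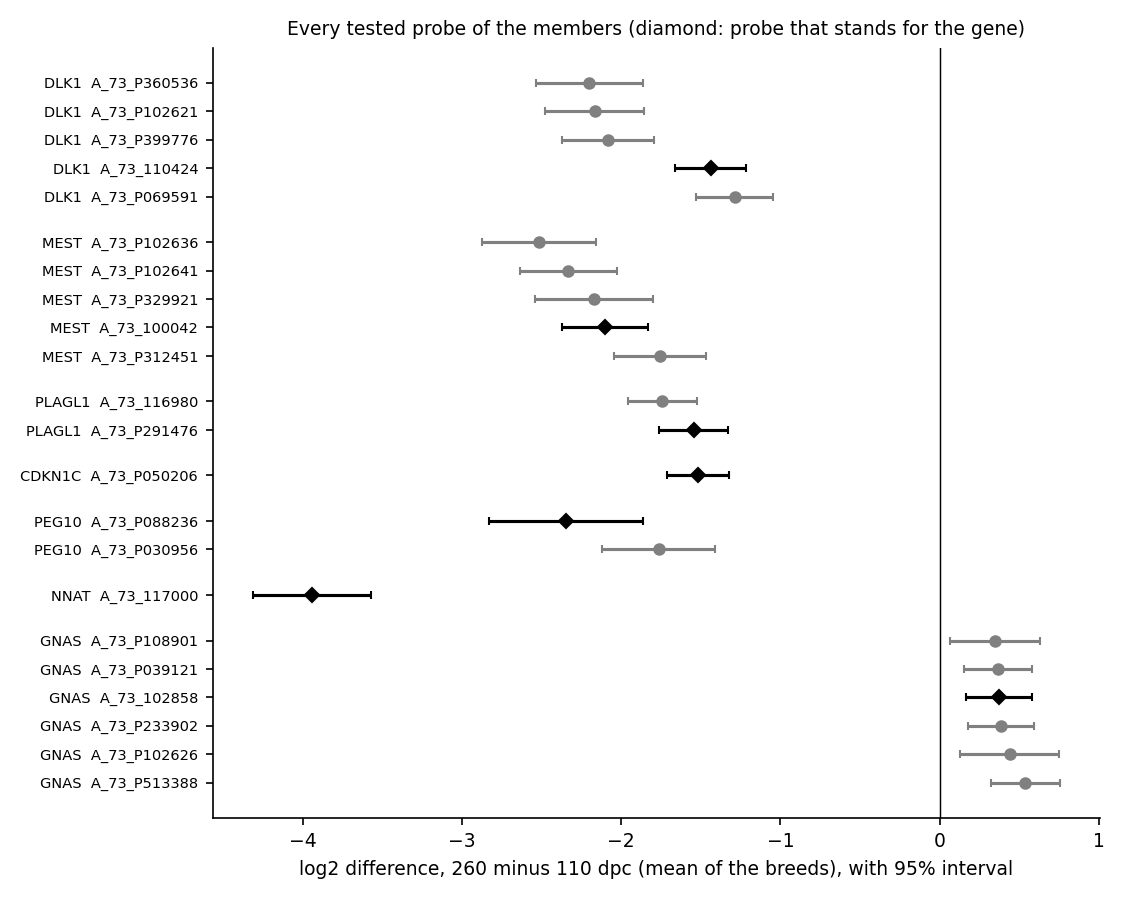
Log2 difference between 260 and 110 dpc, averaged over the breeds (x), for each of the 22 tested probes of the 7 genes (y), with 95% limma intervals and a diamond for the probe that stands for the gene. All 16 probes of the 6 genes that fell lie below 0, with 3 *DLK1* probes between -2.09 and -2.20 and 2 near -1.4, and the 6 *GNAS* probes lie above 0 on this scale.

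The falls were called at different steps. From 110 to 180 dpc 1 gene, *CDKN1C*, was called lower, and none higher, among the 7 probes that stand for the genes, where 11.4% of all probes were called lower and 12.5% higher. From 180 to 210 dpc *NNAT* fell by 1.58 (adjusted p = 4.8e-05), *MEST* by 0.54 (adjusted p = 0.0094), *PLAGL1* by 0.47 (adjusted p = 0.0065) and *CDKN1C* by 0.46. These are 4 of 7 genes, where 4.33% of all probes were called lower and 5.35% higher. *PEG10* differed by -0.65 over the same step (adjusted p = 0.070). From 210 to 260 dpc all 6 were called lower, where 19.9% of all probes were, and *GNAS* was called higher on this scale, where 24.8% of all probes were. In this last step *NNAT* fell by 2.09, *PEG10* by 1.55, *DLK1* by 1.53, *MEST* by 1.31, *PLAGL1* by 0.93 and *CDKN1C* by 0.74. The step after 210 dpc made up 66.2% of the difference between 260 and 110 dpc in *PEG10*, 62.6% in *MEST*, 60.3% in *PLAGL1*, 53.0% in *NNAT* and 48.9% in *CDKN1C*. Whether these shares differ from gene to gene was not tested.

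**Figure D3:**
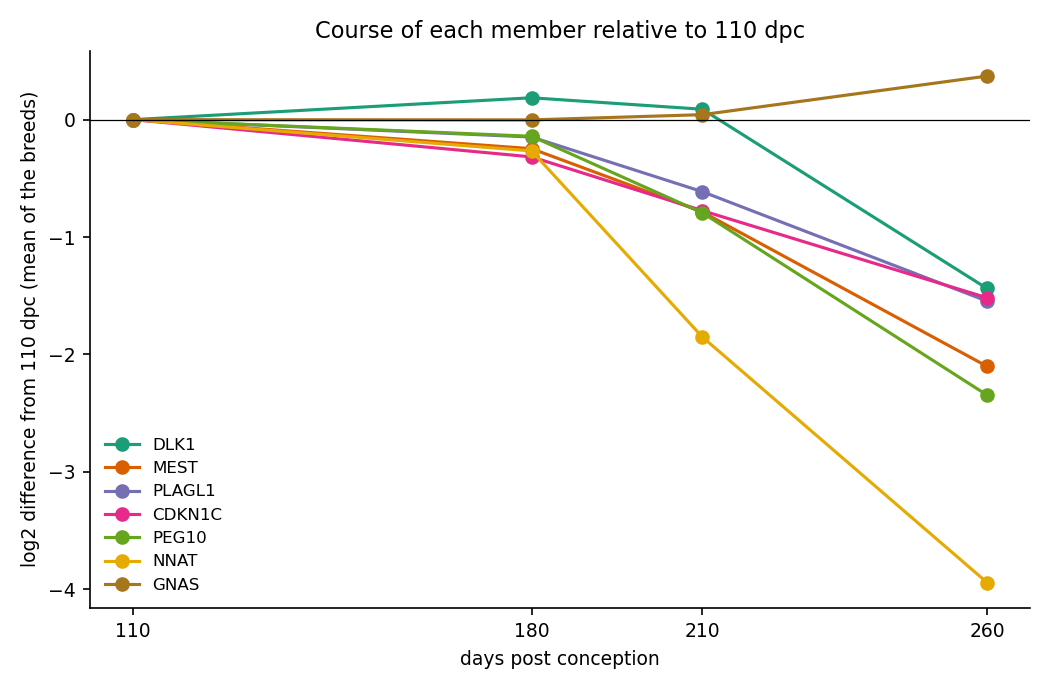
Log2 difference of the stage means from 110 dpc, averaged over the breeds (y), against days post conception (x), with 1 line per gene. *DLK1* lies above 0 until 210 dpc and falls by 1.53 after it, *NNAT* falls in both later steps to -3.94, and *GNAS* ends at 0.37 on this scale.

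Array slide and scan day partly followed the stage. There were 6 slides and 3 scan days, and 1 slide held both 110 and 260 dpc, with 1 array of each (BA and CH, in that order). On that slide the differences were -3.75 in *NNAT*, -2.42 in *MEST*, -1.69 in *PLAGL1*, -1.47 in *CDKN1C*, -1.24 in *PEG10* and -0.97 in *DLK1*, and 0.67 in *GNAS*. With slide as a block the 6 genes fell by 1.21 (*DLK1*) to 4.14 (*NNAT*), with adjusted p between 4.6e-07 and 0.00043. Within the first scan day (1 array at 110 dpc and 2 at 260 dpc) the differences of the 6 genes lay between -4.24 and -1.53, and within the second (3 and 3 arrays) between -3.87 and -1.29.

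Other genes, in lists written with earlier results of these data known, were set beside the imprinted growth genes. Over all probes 30.8% were called lower and 33.3% higher from 110 to 260 dpc. In a list of 15 growth genes of the foetus that are not imprinted, 5 passed the filter and all 5 fell from 110 to 260 dpc. *IGF2BP3*, which binds *IGF2* mRNA, fell by 2.93, and *GPC3*, a cell surface proteoglycan whose loss causes overgrowth, fell by 2.40. The differences were -1.47 in *SOX4*, -1.33 in *EZH2* and -0.79 in *HMGA1*. In a list of 13 proliferation genes 6 passed the filter and all 6 fell, with a median difference of -1.27. The call of *PCNA* among them was lost with slide as a block (-0.35, adjusted p = 0.11). Markers of other cell types moved over the same interval. Of 7 fibroblast genes, all tested, 6 fell (median -0.61), and their summed level was 10.87 to 11.85 at 110 dpc and 10.20 to 10.91 at 260 dpc. With slide as a block *COL3A1* (adjusted p = 0.33) and *PDGFRA* (adjusted p = 0.13) were not called, nor was *PDGFRA* with scaling to the median (adjusted p = 0.11). *COL1A1*, not called on the main scale, was called lower with quantile normalization (-0.80, adjusted p = 0.0023). The 3 tested red blood cell genes (of 6) fell, from a summed level of 9.69 to 10.48 down to 7.59 to 8.86. Both tested cartilage and tendon genes (of 5) fell, from a summed level of 4.34 to 8.41 down to 1.29 to 3.58. The summed level of the muscle genes went from 11.73 to 12.18 at 110 dpc up to 13.24 to 13.46 at 260 dpc, with 4 called higher and 2 (*MYH3*, the embryonic myosin, and *MYOG*) called lower. No defining marker of these 4 cell types that has a probe was under background on every array, and the part of any cell type in the fall of the imprinted genes was not tested.

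Further imprinted genes were set beside them too. Of 55 further genes reported as imprinted in cattle or other mammals, 37 had a probe and 28 passed the filter, of which 11 fell and 10 rose between 110 and 260 dpc, with a median difference of -0.051. Over all probes 30.8% fell and 33.3% rose. The split of the 28 genes moved with the scaling, to 13 lower and 8 higher with quantile normalization and to 13 lower and 3 higher in the authors' unscaled values. The 3 with the largest falls were *PPP1R9A* (-2.23), *BLCAP* (-1.13) and *NDN* (-1.11), which encodes necdin, a growth suppressor. The 3 with the largest differences upwards were *H19*, a long non-coding RNA (2.08), *TFPI2*, a protease inhibitor (1.27), and *PON3* (1.22), of which *PON3* was not called (adjusted p = 0.080). These 5 called genes kept their direction under quantile normalization, scaling to the median, normexp correction and the authors' unscaled values. *H19* rose at every step, by 0.92, 0.45 and 0.71. *IGF2*, the foetal growth factor that shares a domain with *H19*, was 0.36 higher at 260 dpc (adjusted p = 0.0060). With quantile normalization it was called lower instead (-0.18, adjusted p = 0.012). In the authors' unscaled values it was not called (-0.031, adjusted p = 0.90).

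**Figure D4:**
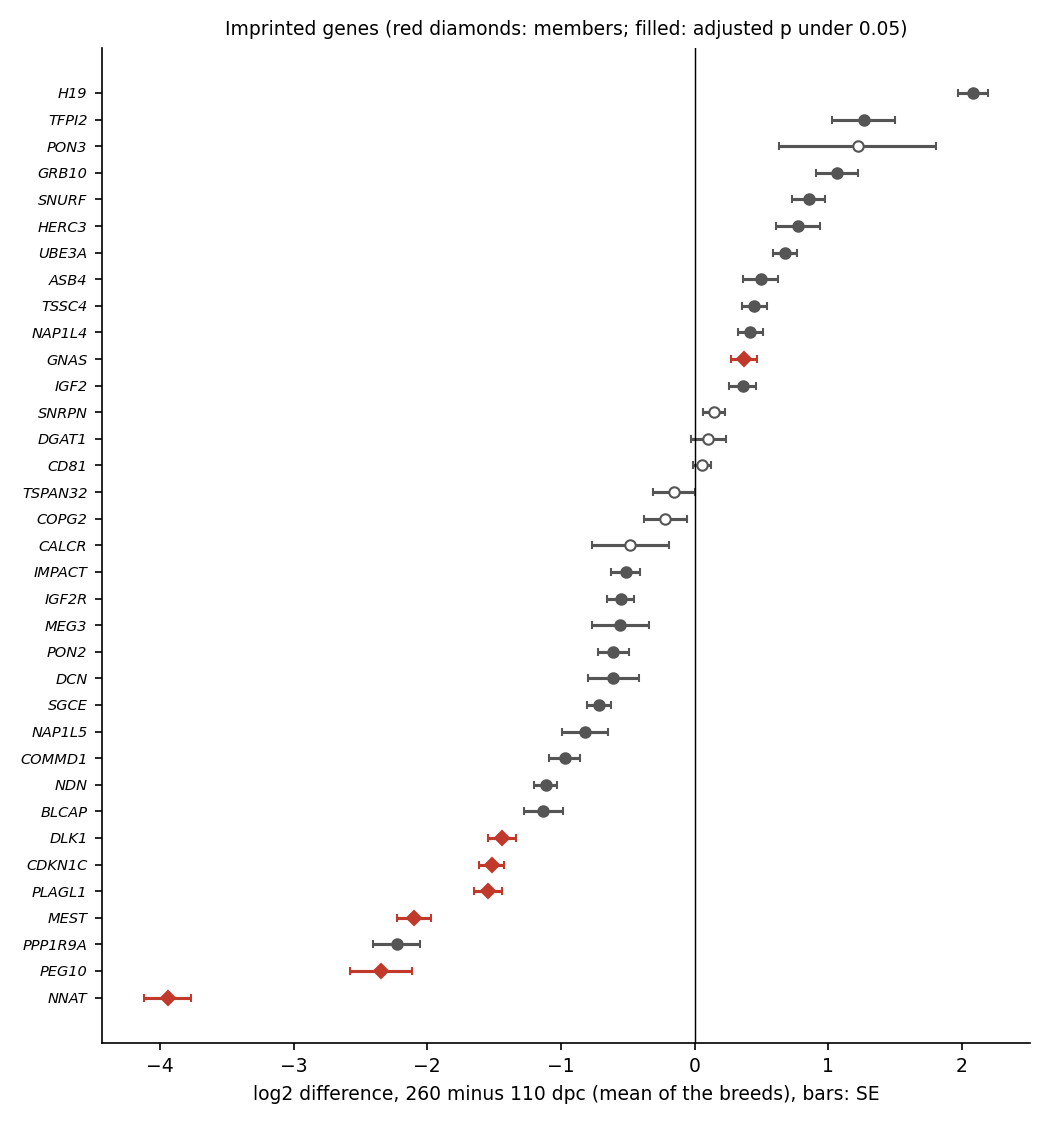
Log2 difference between 260 and 110 dpc, averaged over the breeds (x, bars are SE), for the 7 imprinted growth genes (red diamonds) and the 28 further imprinted genes that passed the filter (grey circles), sorted by size, with filled symbols for an adjusted p under 0.05. *NNAT* and *PEG10* are the lowest, *PPP1R9A* lies between *PEG10* and *MEST*, and *H19* is the highest at 2.08.

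Imprinted genes often lie in clusters, and the neighbours of the growth genes in the cattle annotation were compared with them. These neighbours (listed genes that start within 2 Mb) were picked after their values had been seen. *MEG3*, a maternally expressed RNA of the *DLK1* domain, differed by 0.45 and 0.22 in the first steps, neither called, and fell by 1.22 after 210 dpc (adjusted p = 0.00013). From 110 to 260 dpc it differed by -0.55 (adjusted p = 0.032), a call lost with scaling to the median (-0.45, adjusted p = 0.076) and with slide as a block (-0.38, adjusted p = 0.43). *BLCAP*, in which *NNAT* lies, fell by 1.13 where *NNAT* fell by 3.94. *SGCE*, which shares a promoter region with *PEG10*, rose by 0.27 from 110 to 180 dpc (adjusted p = 0.034) and fell by 0.84 after 210 dpc, and *PPP1R9A* of the same cluster fell at each step. *PON2* of that cluster fell by 0.61 (adjusted p = 0.00019), and *CALCR* (-0.48) and *PON3* (1.22) were not called from 110 to 260 dpc. In the step after 210 dpc alone *CALCR* fell by 0.92 (adjusted p = 0.011). *TFPI2* of that cluster rose by 1.27 and *ASB4* by 0.50, so the cluster did not move one way. *COPG2*, next to *MEST*, differed by -0.22 (adjusted p = 0.24). *H19*, *NAP1L4* and *TSSC4*, in the region of *CDKN1C*, were higher at 260 dpc by 2.08, 0.42 and 0.45 where *CDKN1C* fell. *CD81* (0.053, adjusted p = 0.51) and *TSPAN32* (-0.15, adjusted p = 0.41) of that region were not called. With quantile normalization, however, *CD81* was called lower (-0.51, adjusted p = 4.0e-05). *PHLDA2*, *KCNQ1* and *ASCL2* of that region did not pass the filter and were not tested. The mean of *PHLDA2*, well above background on 16 arrays, was -0.51 at 110 dpc and -1.83 at 260 dpc. That of *KCNQ1*, well above background on 6 arrays, was -3.28 and -2.86, and *ASCL2* was so on 0 arrays. The rises of *ASB4*, *NAP1L4* and *TSSC4* were not called in the authors' unscaled values, where they were 0.11, 0.028 and 0.057. That of *NAP1L4* was also not called with quantile normalization (0.096, adjusted p = 0.34) or with slide as a block (0.35, adjusted p = 0.055).

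Within each breed the fall was seen as well. In BA 6 genes were called lower and none higher, with *GNAS* at 0.29 (adjusted p = 0.096). In CH the same 6 genes were called lower, and *GNAS* was 0.46 higher on this scale (adjusted p = 0.011). Calls were common among all probes tested, with 4989 lower and 5556 higher in BA, and 4976 lower and 5533 higher in CH. *NNAT* differed by -3.70 ± 0.25 in BA and -4.19 ± 0.25 in CH, and *PEG10* by -2.56 ± 0.32 in BA and -2.14 ± 0.32 in CH. The difference between the breeds in this change was tested as an interaction. It was called in none of the 7 genes, and in 0% of all probes. The lowest adjusted p among the genes was 0.81 (*NNAT*, 0.49 with a 95% interval of -0.25 to 1.23), and at an unadjusted p under 0.05 limma gave 0 of the 7 genes and 7.09% of all probes.

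No imprinted growth gene was called for a breed difference. On average over the stages limma called 0 of the 7 genes, where 0.358% of all probes were called, and 2 genes had an unadjusted p under 0.05, where 12.5% of all probes had. It called 0 at 110 dpc (0.273% of all probes), 0 at 180 dpc (0.00993%), 0 at 210 dpc (0%) and 0 at 260 dpc (0%). At an unadjusted p under 0.05 the probes that stand for the genes gave 1, 1, 1 and 0 genes at these stages, against 13.8%, 6.17%, 5.24% and 5.34% of all probes. For the probe that stands for the gene, the 95% interval of the average breed difference was -0.14 to 0.16 in *DLK1*, -0.19 to 0.085 in *CDKN1C*, -0.12 to 0.17 in *GNAS*, -0.32 to 0.052 in *MEST* and -0.30 to 0.37 in *PEG10*. Other probes of a gene reached further, down to -0.32 in *DLK1*, -0.44 in *MEST* and -0.40 in *GNAS*.

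Over all 22 tested probes of the members 0 were called for breed in limma, on average or at any stage, with a lowest adjusted p of 0.15. Averaged over the stages, 4 of the 22 had an unadjusted p under 0.05 in limma, where 12.5% of all probes had. At the 4 stages 6, 1, 5 and 2 had, where 13.8%, 6.17%, 5.24% and 5.34% of all probes had. The 3 *DLK1* probes that rose from 110 to 180 dpc were among these member probes. They were lower in BA at 110 dpc, by differences of -0.62, -0.62 and -0.51 (adjusted p between 0.21 and 0.25), and higher in BA at 210 dpc, by 0.49, 0.47 and 0.37 (adjusted p between 0.81 and 0.94). The *DLK1* probe that stands for the gene was at -0.12 and 0.20 at these stages. In *GNAS*, 1 probe (A_73_P039121) was at -0.18 on average and -0.33 at 110 dpc, and 2 others were at -0.43 and -0.39 at 260 dpc, with adjusted p from 0.30 to 0.92, whereas the probe that stands for the gene was at 0.025 on average. Among the genes listed beside the members, no further imprinted gene was called for breed on average by limma. Of these 28 genes 4 had an unadjusted p under 0.05, where 12.5% of all probes had. Of 6 proliferation genes 1 was called, where 0.358% of all probes were. It was the replication factor *MCM3*, with a difference of -0.87 (BA minus CH, adjusted p = 0.0011).

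*NNAT* had the largest breed difference. Averaged over the stages it was 0.35 higher in BA (95% interval 0.094 to 0.61, unadjusted p = 0.010, adjusted p = 0.23 in limma). It was -0.27 at 110 dpc, 0.81 at 180 dpc (interval 0.29 to 1.34, unadjusted p = 0.0045, adjusted p = 0.62), 0.63 at 210 dpc (adjusted p = 0.76) and 0.22 at 260 dpc. At 180 dpc both BA foetuses, at 5.77 and 5.52, were above the 3 CH foetuses, at 4.50 to 5.15. The BA values at 180 dpc were as high as those of BA at 110 dpc, whereas the 3 CH values were below both CH values at 110 dpc. At 210 dpc the breeds overlapped, since 1 CH foetus at 3.98 lay among the BA values. The untested *NNAT* probe detected on all arrays read 2.91 and 2.35 in BA and 1.56, 1.89 and 1.91 in CH at 180 dpc, in the same order. Breeds without overlap at 180 dpc were seen in 4 of the 7 genes and in 25.5% of all probes. At 110, 210 and 260 dpc they were seen in 1, 2 and 2 genes, and in 29.4%, 10.5% and 19% of all probes.

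*PLAGL1* was lower in BA on average, by 0.22 (interval of the difference -0.37 to -0.067, unadjusted p = 0.0073, adjusted p = 0.21). The difference was -0.37 at 110 dpc, -0.21 at 180 dpc, -0.13 at 210 dpc and -0.17 at 260 dpc. In the probe that stands for the gene the groups overlapped at 110 and 210 dpc. At 110 dpc 1 BA foetus was at 5.73 and 1 CH foetus at 5.71. In the second tested probe, A_73_116980, they did not overlap at 110 dpc (5.36 to 5.70 in BA, 5.91 to 5.99 in CH). Nor did they at 210 dpc (4.62 to 4.99 in BA, 5.03 to 5.20 in CH), but they overlapped at 180 and 260 dpc. Over all probes 29.4% and 10.5% did not overlap at 110 and 210 dpc. This second probe differed by -0.39 at 110 dpc (unadjusted p = 0.016, adjusted p = 0.25 in limma). Foetuses of both breeds at the same stage shared a slide in 6 slide and stage pairs. Within these *PLAGL1* was lower in BA in 6 of 6, by 0.055 to 0.46, and *NNAT* was higher in BA in 5 of 6, with differences from -0.028 to 1.33. Other genes were of 1 sign as often as *NNAT*, since *GNAS* was higher in BA in 5 of 6, and *MEST* and *CDKN1C* were lower in 5 of 6. Neither difference passed the adjusted threshold with slide as a block (adjusted p = 0.49 for *PLAGL1* and 0.58 for *NNAT*). Sex was not balanced between the breeds within stages.

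**Figure D5:**
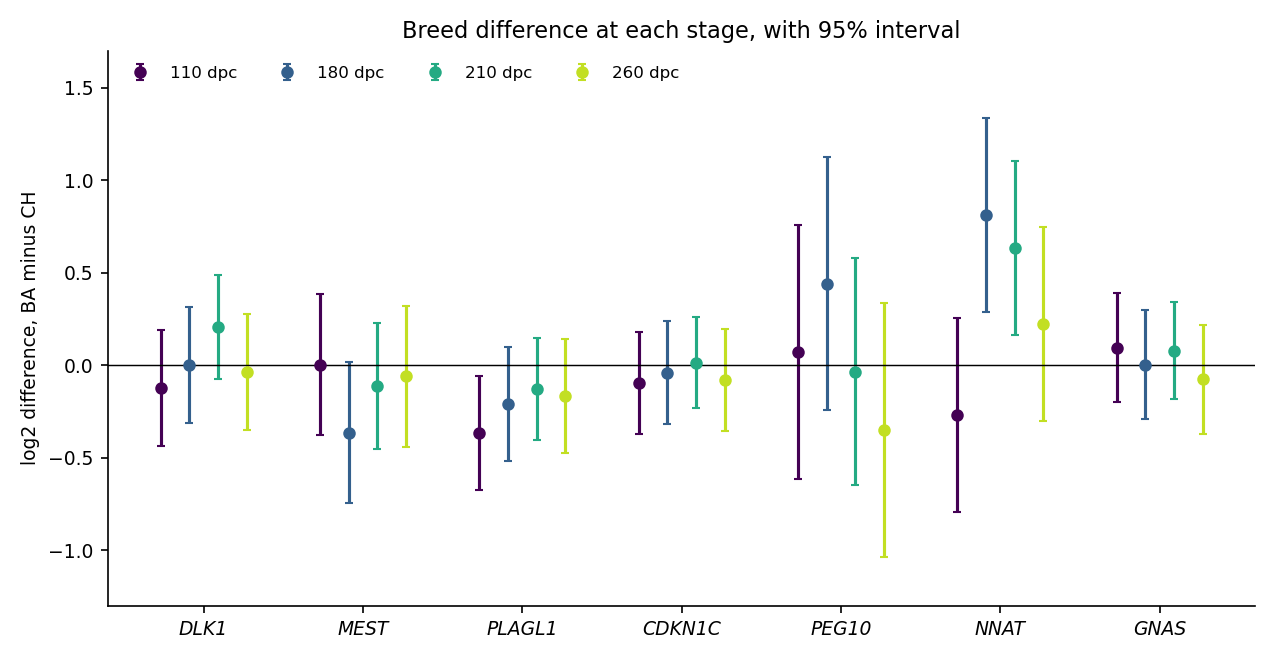
Log2 difference between BA and CH (y, BA minus CH) for each gene (x) at 110, 180, 210 and 260 dpc, with 95% limma intervals. Most intervals span 0. Those of *NNAT* at 180 and 210 dpc lie above it, and that of *PLAGL1* at 110 dpc lies below it, with adjusted p of 0.62, 0.76 and 0.28.

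The genes whose course over the 21 arrays was most like that of each member were looked up among the other 7931 genes by Pearson's r, as a description. The arrays share their stages, so a gene that falls over gestation scores high with any other. The closest to *DLK1* were *MAGED4B* (0.96), *MAGED1* (0.96) and *GPC3* (0.95), and to *CDKN1C* they were *CCND2* (0.98), a D-type cyclin, *EFHD2* (0.98) and *DPYSL5* (0.98). To *MEST* they were *MFAP2* (0.98), a protein of microfibrils, *FAP* (0.98), a protease of activated fibroblasts, and *PHETA2* (0.98). To *NNAT* they were *ST6GALNAC6*, *EFHD2* and *EFNB1* (0.98 each), to *PLAGL1* *AFAP1* (0.98), *ARMCX2* (0.97) and *STARD3NL* (0.97), and to *PEG10* *PGF* (0.95), placental growth factor, *SLC7A7* (0.95) and *TCAF2* (0.95). The genes closest to *GNAS* were *IGF2* (0.96), *RPLP1* (0.94) and *MYL1* (0.92). All these correlations were taken on the main scale, and the direction of both *GNAS* and *IGF2* over gestation depends on the scaling.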

How the data were processed

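The authors extracted each spot's intensity with Agilent Feature Extraction 10.7, with background and multiplicative detrending, without background subtraction. The methods also name normalization between arrays, which the deposited values do not show: they hold log2 intensities, and 99.98% of them differ from log2 of the processed scanner intensity by less than 0.01. They served as an alternative. Left out were control spots and 258 outlier spots (0 spots were saturated). Spots of a probe were averaged, and log2 values were scaled to the 75th percentile. The array was designed on another assembly than ARS-UCD2.0, which named the probes, so positions are not given. A mean per breed and stage group was fitted with limma 3.58.1 in R 4.3.3 (files read with data.table version 1.17.8 and jsonlite 2.0.0), with 13 residual and 3.79 prior degrees of freedom, and checked on simulated data. P-values measure the spread between foetuses that share 2 sires per breed. Named were the members, further imprinted genes called for breed (none), the 3 largest falls and rises among further imprinted genes, and the 3 genes most correlated with each member. Other genes were chosen after their values were seen. Members and lists were chosen with earlier results of these data known. *DCN* is in both the imprinted and the fibroblast list. Two-sided tests were used throughout.

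Other lists were adipocyte genes (1 tested, 0 called), nerve and Schwann cell (3 tested, 2 higher), endothelium (5 tested, 1 lower, 3 higher), leukocyte (2 tested, 1 higher) and muscle progenitor genes (1 tested, *MYF5*, lower by 2.17). Alternatives were normexp correction (offset 50), quantile and median scaling, the deposited table, no filter, a detection filter, sex, females alone, a block for slide, scan day (added after seeing the data), replicate number or sire, a trended robust variance, stages alone, the mean of a gene's probes, and each array left out.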

Additional observations from a re-analysis of the deposited data

How the results depend on the processing

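The 6 genes that fell from 110 to 260 dpc were called lower under all 15 alternatives and without each of the 21 arrays in turn, and no member was called for breed under any of them. The number of members called higher went from 1 to 0 with quantile normalization, where *GNAS* was at -0.15, and with the authors' value table, where it was at -0.019. Over all probes, 2492 were called higher with the authors' value table and 4466 with the mean of a gene's probes (fewer features tested), against 6708. Called lower were 9911 without the filter and 9923 with the detection filter, against 6198. These 2 settings tested more probes, 43651 and 31957, against 20132. The 72 probes called for breed on average became 17 with the authors' value table, 32 without the filter, 20 in females alone, 18 with slide as a block, 25 with scan day as a block (an alternative chosen after seeing the data), 45 with the replicate block and 209 with sire as a random block, and 25 to 218 with 1 array left out (218 without BA replicate 1 at 110 dpc, 25 without BA replicate 2 at 260 dpc); the cause was not tested. Replicate numbers do not pair the foetuses, since arrays of the same number had a median correlation of 0.0091 in 66 pairs and the others -0.0091 in 126, and the replicate block changed no call of a member. Single probes of *PEG10* and *PLAGL1* and 2 of *NNAT* did not pass the filter on the mean level, and the first 2 were well above background on 5 and 17 arrays, which limits them.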
